A study of Mus musculus with 7 samples.

Results

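The genes described here are 29 genes of astrocytes and Bergmann glia, the radial astrocytes whose fibres span the cerebellar cortex. They were chosen by name, and every probe set that the platform annotation assigns to exactly 1 of them was taken, which gave 68 probe sets. They are 29 of 18193 genes with such a probe set on the array. At least 1 probe set of 28 of the 29 genes reached the array median on 3 or more arrays, and these 28 stand among 11081 genes tested. A further probe set, shared by Slc1a2 and another gene, was not used.

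The arrays compare the Nestin-positive with the Nestin-negative fraction of granule neuron precursors, the dividing cells that form cerebellar granule neurons. All mice carried Math1-Cre, a floxed Ptch1 allele (written Ptc-loxp in the sample labels) and Nestin-CFP. Math1-Cre is driven by a transcription factor gene of the granule neuron lineage and removes Ptch1, the inhibitory Hedgehog receptor, from that lineage in both fractions. Nestin-CFP, a fluorescent reporter under Nestin regulatory sequence, was the basis of the sort. The Nestin-positive fraction was measured on 4 arrays, numbered 1, 3, 4 and 5. The Nestin-negative fraction was measured on 3, numbered 1, 4 and 5, and neither fraction was cultured or treated. The sample labels name medulloblastoma as the tissue and give postnatal day 7, whereas the series text gives postnatal day 4. Whether samples came from separate animals is not stated, so p-values measure only the spread between these samples, which may be technical. With so few arrays, precision is limited throughout.

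Astrocytes take up glutamate and potassium released by neurons, turn glutamate into glutamine, buffer water at vessels, and secrete lipoproteins and matrix proteins. Bergmann glia share most of these genes and guide granule neurons on their inward migration. Several of the 29 genes, among them Fabp7, Slc1a3, Tnc and Hopx, are also expressed by radial glia and neural progenitors, as is Nestin itself, so that these genes do not mark mature astrocytes alone. In sorted populations measured in bulk, fewer astroglial cells and less RNA per cell cannot be told apart.

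Values are MAS5 signals, probe set brightness on a linear scale, scaled by the authors to a common level. Differences are Nestin-positive minus Nestin-negative on the log2 scale, from limma fitted over all 11081 genes with Benjamini-Hochberg adjustment, and a gene is called at an adjusted p under 0.05. Array medians lay between 64.6 and 94.7, and a signal under its array's median is called dim. Control ratios of 3' to 5' signal, a sign of RNA quality, ran from 1.68 to 1.99 for beta-actin and from 1.09 to 1.38 for Gapdh over the 7 arrays. Nes, which encodes Nestin, had signals of 478, 829, 722 and 543 on the Nestin-positive arrays, against 179, 174 and 217 on the Nestin-negative arrays. All of its Nestin-positive values were above all of its Nestin-negative values, which checks the labels and is no finding. Granule neuron precursor markers were bright on all 7 arrays: 7 of 8 were measured and none of the 7 was dim on any array.

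Astroglial signal varied with the replicate number as well as with the fraction. Both replicate 1 arrays were low, Nestin-negative replicates 4 and 5 and Nestin-positive replicate 3 were high, and Nestin-positive replicates 4 and 5 lay between them. Of the 28 genes, 24 had their lowest signal on a replicate 1 array (15 on the Nestin-positive and 9 on the Nestin-negative one). The highest signal lay on Nestin-positive replicate 3 for 12 genes, on Nestin-negative replicate 4 for 11 and on Nestin-negative replicate 5 for 4. Relative to each gene's mean over the arrays, the 28 genes averaged -1.02, 0.62, -0.07 and -0.11 on Nestin-positive replicates 1, 3, 4 and 5. They averaged -0.77, 0.71 and 0.63 on Nestin-negative replicates 1, 4 and 5.

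The median of the genes' SDs (log2) was 0.71 within the Nestin-positive and 0.90 within the Nestin-negative group, against 0.22 and 0.19 over all genes tested. The spread of astroglial genes between arrays of 1 fraction was thus wider than that of a typical gene. Fabp7, the brain lipid-binding protein of radial and Bergmann glia, had signals of 1047, 14175, 4605 and 5303 in Nestin-positive replicates 1, 3, 4 and 5. In Nestin-negative replicates 1, 4 and 5 it had 1174, 8449 and 9899.8. The highest and the lowest Fabp7 signal, 13.5-fold apart, were both on Nestin-positive arrays.

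**Figure D1:**
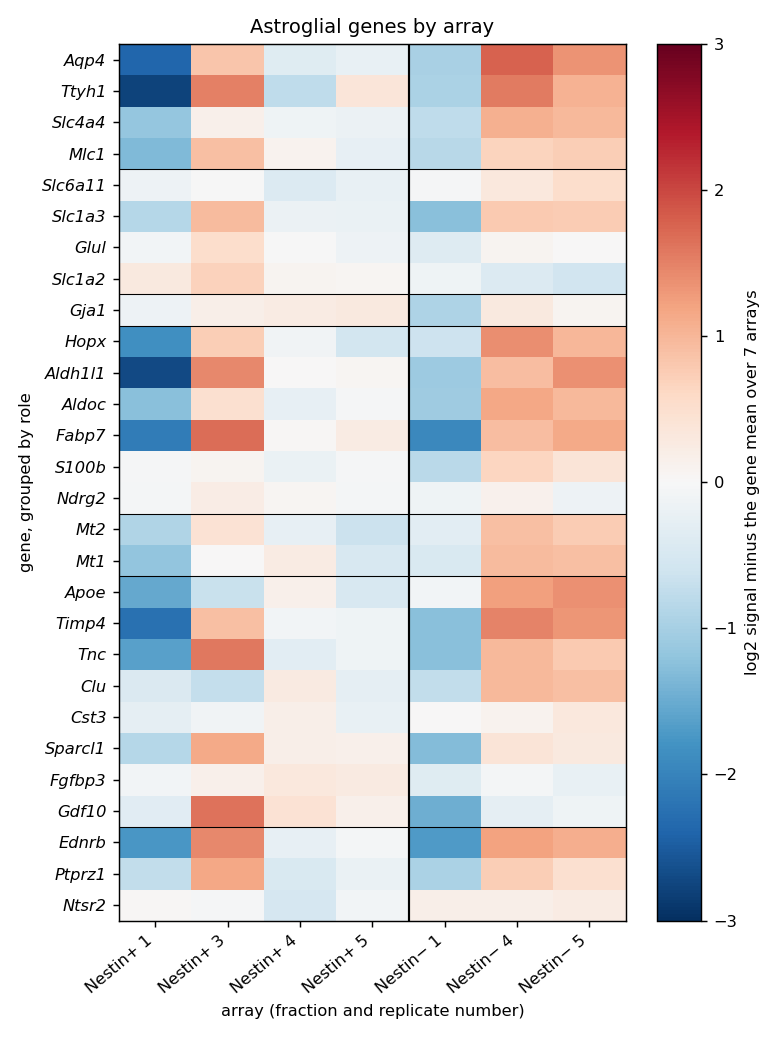
Log2 signal of the 28 measured astroglial genes (rows, grouped by role) on the 7 arrays (columns, Nestin-positive left of the line), as the difference from each gene's mean over the arrays. The replicate 1 columns are mostly blue, Nestin-positive replicate 3 and Nestin-negative replicates 4 and 5 mostly red.

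Without the replicate number in the fit, limma called 0 of the 28 genes, while 5 had an unadjusted p under 0.05. Of all genes tested, 0.749% were called, 0.171% higher and 0.578% lower. The median log2 difference of the 28 was -0.34, against -0.03 over all genes, with 21 negative and 7 positive. The groups did not overlap for 2 genes, Slc1a2 and Ntsr2, where 15.0% of all genes had non-overlapping groups (5.87% higher and 9.11% lower). Adjusted p-values lay between 0.117 (Slc1a2) and 0.980 (Fabp7), and for 19 genes the difference was smaller than the larger of the 2 groups' SDs.

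Replicate numbers 1, 4 and 5 occur in both fractions. Entered as a block, they compare arrays of the same number, and Nestin-positive replicate 3, which has no partner, then adds nothing to the difference. In this fit 13 of the 28 genes fell and 2 rose, where 6.40% of all genes tested were lower and 3.58% higher (9.98% in all). The median was -0.60, against -0.01 over all genes. That the numbers pair the samples was read from the data and is not stated in the labels, and each gene has only 2 residual degrees of freedom of its own in this fit. The fit with the number as a random block, which keeps replicate 3, called Apoe and Mt2 lower and Slc1a2 higher (2 and 1 of the 28, where 5.10% of all genes were lower and 2.62% higher).

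Pair by pair, the Nestin-positive array was lower all 3 times for 16 genes, as it was for 23.0% of all genes. It was higher all 3 times for 3 genes, Slc1a2, Gdf10 and Fgfbp3, and for 19.0% of all genes (42.0% had the same sign all 3 times). The median difference of the 28 was -0.16 in pair 1, -0.86 in pair 4 and -0.90 in pair 5, against -0.03, -0.00 and -0.02 over all genes. In pair 1, where both arrays were low, 17 genes were lower and 11 higher.

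Leaving out 1 pair left 1 residual degree of freedom per gene, so that these fits rest on the spread pooled over genes. Without pair 1, 18 of the 28 genes were lower and 2 higher (4.81% and 1.67% of all genes). The 5 genes added were Slc1a3 (-0.96), Ptprz1 (-0.94), Clu (-0.93), Slc6a11 (-0.74) and S100b (-0.64). Without pair 4, 13 were lower and 3 higher (7.64% and 5.10% of all genes), with Cst3 (-0.42) and Gja1 (0.50) added and Tnc (-0.64) lost. Without pair 5, the count was 13 lower and 2 higher (5.23% and 2.92% of all genes).

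**Figure D2:**
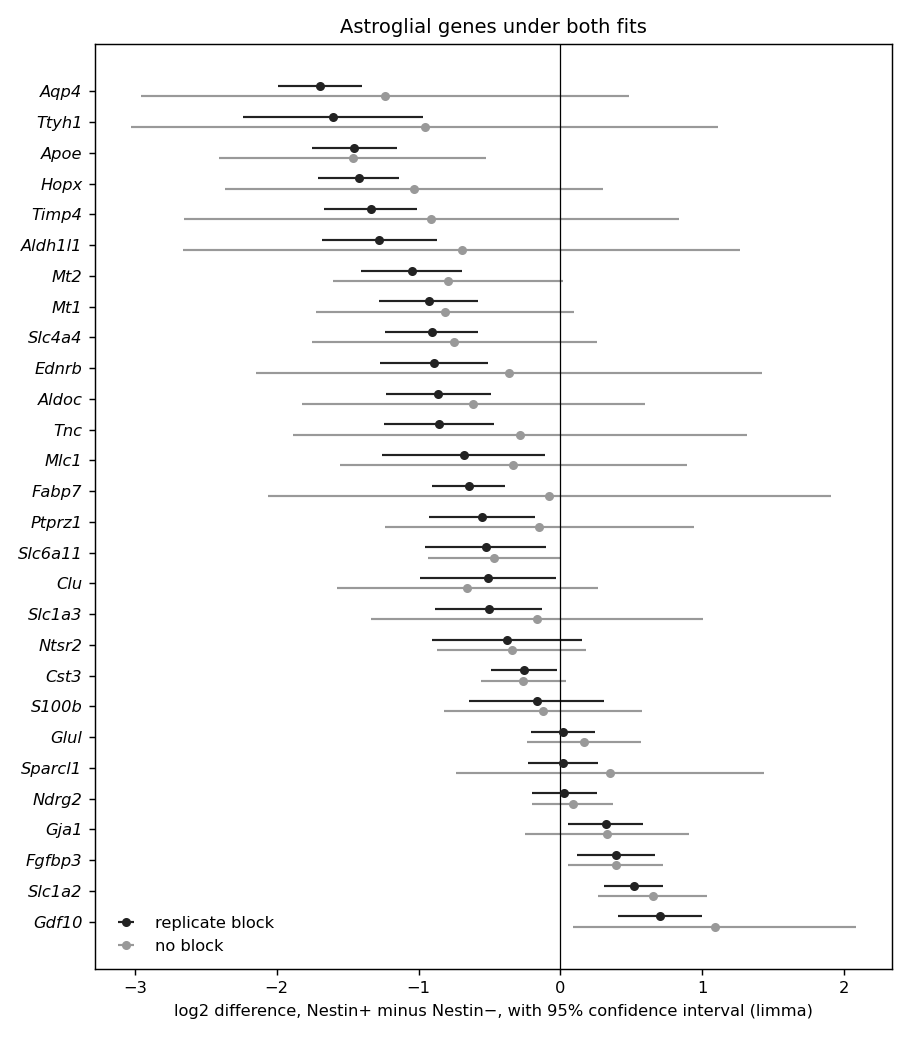
Log2 difference, Nestin-positive minus Nestin-negative, with its 95% confidence interval for each of the 28 genes, with the replicate number as a block (black) and without it (grey). Without the block most intervals span 0; with it, Aqp4 is the lowest at -1.69 and Gdf10 the highest at 0.70.

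The genes follow by role, which serves for order only, and no role was tested as a set. Of the genes for water, ions and cell volume, 3 of 4 fell with the block (6.40% of all genes tested did). Aqp4, the water channel of astrocyte endfeet, had signals of 114, 1048, 457 and 508 in Nestin-positive replicates 1, 3, 4 and 5, against 299, 2008 and 1494 in Nestin-negative replicates 1, 4 and 5. Each Nestin-positive sample lay below its same-numbered partner, while the groups overlapped because Nestin-negative replicate 1 lay below 3 of the 4 Nestin-positive arrays. The difference was -1.69 ± 0.14 (SE), or 3.23-fold lower (limma with the block, adjusted p = 1.4e-07), and -1.24 ± 0.77 without the block (adjusted p = 0.515). A second probe set of Aqp4 was lower too (-1.62, called).

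Slc4a4, a sodium bicarbonate cotransporter, had 188, 470.2, 387 and 375 on the Nestin-positive arrays, against 248, 877 and 828 on the Nestin-negative arrays. It was 1.88-fold lower with the block (-0.91 ± 0.16, adjusted p = 0.00062), and all 3 of its kept probe sets were called lower. Without the block it was not called (-0.75 ± 0.45, adjusted p = 0.502). Ttyh1, a membrane protein of the tweety family, had 14.4, 283, 57.8 and 127 on the Nestin-positive arrays, against 51.1, 288 and 202 on the Nestin-negative arrays. Its fall (-1.60 ± 0.31, adjusted p = 0.0015) rests on dim values in both fractions. With dim values raised to the array median, the difference was -0.94 and no longer called (adjusted p = 0.0562), nor was it called without the block (-0.96 ± 0.93, adjusted p = 0.697). A second kept probe set of Ttyh1 was lower with the block without being called (-0.80). In pair 1 it had 30.8 on the Nestin-positive against 27.8 on the Nestin-negative array. Mlc1, a membrane protein of perivascular endfeet, was lower in all 3 pairs without being called (-0.68 ± 0.28, adjusted p = 0.137), at 37.1 to 174 on the Nestin-positive and 52.0 to 154 on the Nestin-negative arrays.

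Of 4 genes of transmitter uptake and glutamine synthesis, 1 rose and 0 fell with the block (limma, 2 of the others below an unadjusted p of 0.05). Among all genes tested, 3.58% rose and 6.40% fell. Slc1a2, the glutamate transporter also called GLT-1, rose, with signals of 4316, 5712, 3756 and 3712 on the Nestin-positive arrays, against 3254, 2651 and 2387 on the Nestin-negative arrays. Every Nestin-positive array was above every Nestin-negative one, and on the Nestin-negative arrays replicate 1 was the highest, unlike most of the astroglial genes. The difference was 0.52 ± 0.10 with the block (1.43-fold, adjusted p = 0.0019) and 0.65 ± 0.17 without it (adjusted p = 0.117). All 4 kept probe sets of Slc1a2 were higher with the block, though only the brightest, whose signals are given here, was called. On another, Nestin-negative replicate 1 (312) lay above Nestin-positive replicates 1, 4 and 5 (228, 192 and 227). A further one (1.92) had 3.63 on Nestin-negative replicate 4. On the last, the groups did not overlap (119.7 to 133 on Nestin-positive, 85.2 to 111 on Nestin-negative arrays).

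Slc1a3, the glutamate transporter GLAST of Bergmann glia and radial glia, had 757, 2643, 1199.7 and 1185 on the Nestin-positive arrays, against 572, 2344 and 2301 on the Nestin-negative arrays. It was higher in the Nestin-positive sample of pair 1 and lower in pairs 4 and 5, and was not called (-0.51 ± 0.18, adjusted p = 0.0833), although 1 of its 5 kept probe sets was called lower when each was tested singly. The GABA transporter gene Slc6a11 was lower in all 3 pairs (-0.53 ± 0.20, adjusted p = 0.117), at 129.8 to 171 on the Nestin-positive and 167 to 249.996 on the Nestin-negative arrays. Glul, glutamine synthetase, differed by 0.02 ± 0.11 (95% confidence interval -0.21 to 0.24) and was not called, with signals of 3682 to 5849 on the Nestin-positive and 3124 to 4276 on the Nestin-negative arrays.

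Neither gap junction gene was called. Gja1, connexin 43, differed by 0.32 ± 0.13 (adjusted p = 0.129), with Nestin-negative replicate 1 at 1524 and the other 6 arrays between 2632 and 3576. Gjb6, connexin 30, was dim on all 7 arrays, with signals of at most 14.3 on the Nestin-positive and at most 44.5 on the Nestin-negative arrays. It is the 1 gene of the 29 that was not tested, and no fold is given for it.

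Among the enzymes and intracellular proteins, 4 of 6 fell with the block (6.40% of all genes tested did). Hopx, a homeodomain-only protein of radial glia and Bergmann glia, had signals of 124, 735, 410.0 and 304 on the Nestin-positive arrays, against 288, 1159 and 889 on the Nestin-negative arrays. It lay between 1.22 and 1.55 below its partner in each pair on the log2 scale, and the difference was -1.42 ± 0.14 (2.68-fold lower, adjusted p = 8.9e-07), or -1.03 ± 0.60 without the block (adjusted p = 0.487). Aldh1l1, the folate enzyme used as a pan-astrocyte marker, had 29.2, 518, 191 and 199.96 on the Nestin-positive arrays, against 88.9, 360.4 and 493 on the Nestin-negative arrays. Both replicate 1 values of Aldh1l1 were dim: the fall was 2.42-fold (adjusted p = 0.00018), and 1.67-fold (adjusted p = 0.0408) with dim values raised to the array median. Without the block its difference was -0.70 ± 0.88 (adjusted p = 0.774).

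Aldoc, the brain form of aldolase, had 165, 551, 335 and 389 on the Nestin-positive arrays, against 188, 886 and 773 on the Nestin-negative arrays (-0.86 ± 0.18 with the block, adjusted p = 0.0029, and -0.62 ± 0.54 without it, adjusted p = 0.669). Fabp7, given above, was 1.57-fold lower with the block (-0.65 ± 0.12, adjusted p = 0.0016). Its difference without the block was -0.08 ± 0.89 (adjusted p = 0.980), and the pairs differed among themselves: -0.16 in pair 1, -0.88 in pair 4 and -0.90 in pair 5. S100b, a calcium-binding protein, had signals of 199 to 241 on the Nestin-positive and 129.5 to 355 on the Nestin-negative arrays. It was not called (-0.17 ± 0.23, adjusted p = 0.742) and had opposite signs in pair 1 (0.77) and pairs 4 and 5 (-0.84 and -0.44). Ndrg2, a stress-responsive protein abundant in astrocytes, had signals of 1094 to 1334 on the Nestin-positive and 1035 to 1252 on the Nestin-negative arrays, with a difference of 0.03 ± 0.11 (95% confidence interval -0.20 to 0.25).

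Both metallothionein genes fell with the block, as did 6.40% of all genes tested. Mt1 and Mt2 encode small cysteine-rich proteins that bind zinc and copper and are induced by metals and glucocorticoids. Mt1 had signals of 136, 310.3, 367 and 221 on the Nestin-positive arrays, against 224, 590.2 and 578 on the Nestin-negative arrays. Mt2 had 156, 396, 245 and 188 on the Nestin-positive arrays, against 237, 544 and 498 on the Nestin-negative arrays. Both were lower in all 3 pairs and highest on Nestin-negative replicate 4, with differences of -0.93 ± 0.17 (adjusted p = 0.00089) for Mt1 and -1.05 ± 0.17 (adjusted p = 0.00034) for Mt2. Neither was called without the block (-0.81 ± 0.41, adjusted p = 0.412 for Mt1, and -0.79 ± 0.36, adjusted p = 0.360 for Mt2). The Mt1 probe set is of the type (suffix s) whose probes can match more than 1 transcript, so that the 2 readings may not be independent.

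The 2 genes lie beside each other on chromosome 8, with annotated starts 6471 bases apart. Both were among the 16 of 28 genes that were lower in all 3 pairs, and shared control was not tested. The 250 bases before each start are shown for these neighbours. They are from RefSeq (GRCm38.p6), chr8:94178839-94179088 for Mt1 and chr8:94172368-94172617 for Mt2, both on the + strand. Capitals mark matches to the metal response element core, searched as TGCGCNC and TGCACNC on both strands.
Mt1: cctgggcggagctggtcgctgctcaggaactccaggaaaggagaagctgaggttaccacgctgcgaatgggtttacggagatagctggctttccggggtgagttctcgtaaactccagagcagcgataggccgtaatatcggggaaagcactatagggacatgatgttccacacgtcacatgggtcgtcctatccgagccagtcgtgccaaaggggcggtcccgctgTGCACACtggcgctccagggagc
Mt2: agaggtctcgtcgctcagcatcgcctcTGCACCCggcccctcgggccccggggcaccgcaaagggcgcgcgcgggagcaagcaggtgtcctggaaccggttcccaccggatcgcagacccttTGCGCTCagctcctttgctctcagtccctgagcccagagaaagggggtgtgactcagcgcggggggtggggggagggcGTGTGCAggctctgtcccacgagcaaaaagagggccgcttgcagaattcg
Within these 250 bases Mt1 had 1 match and Mt2 had 3, of which 1 was on the opposite strand. Bases beyond the windows, including those after the annotated starts, were not searched, so the counts do not cover the whole of either promoter. Of 32851 promoter windows of this length, 21.4% held at least 1 match and 1.26% at least 3. A match is a stretch of letters and was not tested for binding.

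Among the 8 secreted and matrix proteins, 3 fell and 1 rose with the block (6.40% and 3.58% of all genes tested). Apoe, the main lipid carrier secreted by astrocytes and also made by microglia, had signals of 192, 349, 618 and 398 on the Nestin-positive arrays, against 519.9, 1300.1 and 1435 on the Nestin-negative arrays. Only Nestin-negative replicate 1 fell within the Nestin-positive range, and Apoe was, unlike most of the fallen genes, not raised on Nestin-positive replicate 3. The difference was -1.45 ± 0.14, or 2.74-fold lower (adjusted p = 1.1e-06), and nearly the same without the block (-1.47 ± 0.42, adjusted p = 0.143). Microglial markers averaged -2.17, -2.02, -0.86 and -0.05 relative to their means on Nestin-positive replicates 1, 3, 4 and 5, against 0.90, 1.42 and 2.78 on Nestin-negative replicates 1, 4 and 5, and their part in the Apoe difference was not tested. Timp4, a tissue inhibitor of metalloproteinases, had 67.6, 594, 301 and 291 on the Nestin-positive arrays, against 135, 891 and 798 on the Nestin-negative arrays. It was 2.53-fold lower (adjusted p = 1.1e-05), and both of its probe sets were called with the block. Without the block the difference was -0.91 ± 0.78 (adjusted p = 0.659).

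Tnc, tenascin C, a matrix glycoprotein of radial glia, had 76.9, 714, 192 and 219 on the Nestin-positive arrays, against 100.1, 467 and 408 on the Nestin-negative arrays. Its highest signal of all was on Nestin-positive replicate 3, yet it was lower in each of the 3 pairs (-0.85 ± 0.19, adjusted p = 0.0044; 0.0524 without pair 4, where it was no longer called). Without the block the difference of Tnc was only -0.29 ± 0.72 (adjusted p = 0.892). Gdf10, a TGF-beta family ligand of Bergmann glia, ran the other way, with 529, 2059, 902 and 743 on the Nestin-positive arrays, against 244, 552 and 611 on the Nestin-negative arrays. The groups overlapped only at Nestin-positive replicate 1, and Gdf10 was 1.63-fold higher with the block (0.70 ± 0.14, adjusted p = 0.0025; 1.09 ± 0.45 and 0.302 without the block). Fgfbp3, an FGF-binding protein, was higher in all 3 pairs without being called (0.39 ± 0.13, adjusted p = 0.0628), at 457 to 602 on the Nestin-positive and 374 to 463 on the Nestin-negative arrays.

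The other secreted proteins were not called. Clu, clusterin, with 116 to 229 on the Nestin-positive and 113 to 371 on the Nestin-negative arrays, differed by -0.51 ± 0.23 (adjusted p = 0.192), although 1 of its 3 probe sets was called lower. Cst3, the protease inhibitor cystatin C, with 4143 to 5641 on the Nestin-positive and 5060.4 to 6275 on the Nestin-negative arrays, differed by -0.26 ± 0.11 (adjusted p = 0.166). Sparcl1, also called hevin, had 1626, 6512, 3365 and 3278 on the Nestin-positive arrays, against 1210.4, 3881 and 3657 on the Nestin-negative arrays. Like Fabp7 it was lowest on the replicate 1 arrays and highest on Nestin-positive replicate 3, and no difference between the fractions was called (0.02 ± 0.12, 95% confidence interval -0.23 to 0.27).

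Of 3 receptors, Ednrb fell with the block (6.40% of all genes tested did). This endothelin receptor had signals of 191, 1732, 539 and 613 on the Nestin-positive arrays, against 198, 1484 and 1373 on the Nestin-negative arrays. On this brightest probe set of Ednrb the replicate 1 arrays were nearly equal. Its fall (-0.89 ± 0.18, adjusted p = 0.0027) came from pairs 4 (-1.46) and 5 (-1.16), and its unblocked difference was -0.36 ± 0.80 (adjusted p = 0.877). Another kept probe set, also called lower with the block (-0.73), was lower in pair 1 too (75.8 against 129.7). The remaining one (-0.88, not called) had 43.0 against 60.9 in pair 1. Ptprz1, a receptor-type phosphatase with signals of 359 to 1338 on the Nestin-positive and 309.7 to 998 on the Nestin-negative arrays, differed by -0.55 ± 0.18 (adjusted p = 0.0547), with a positive value in pair 1 (0.21). Ntsr2, a neurotensin receptor, was close to the array medians throughout, at 76.4 to 111 on the Nestin-positive and 121 to 127 on the Nestin-negative arrays, and was not called (-0.38 ± 0.25, adjusted p = 0.431).

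**Figure D3:**
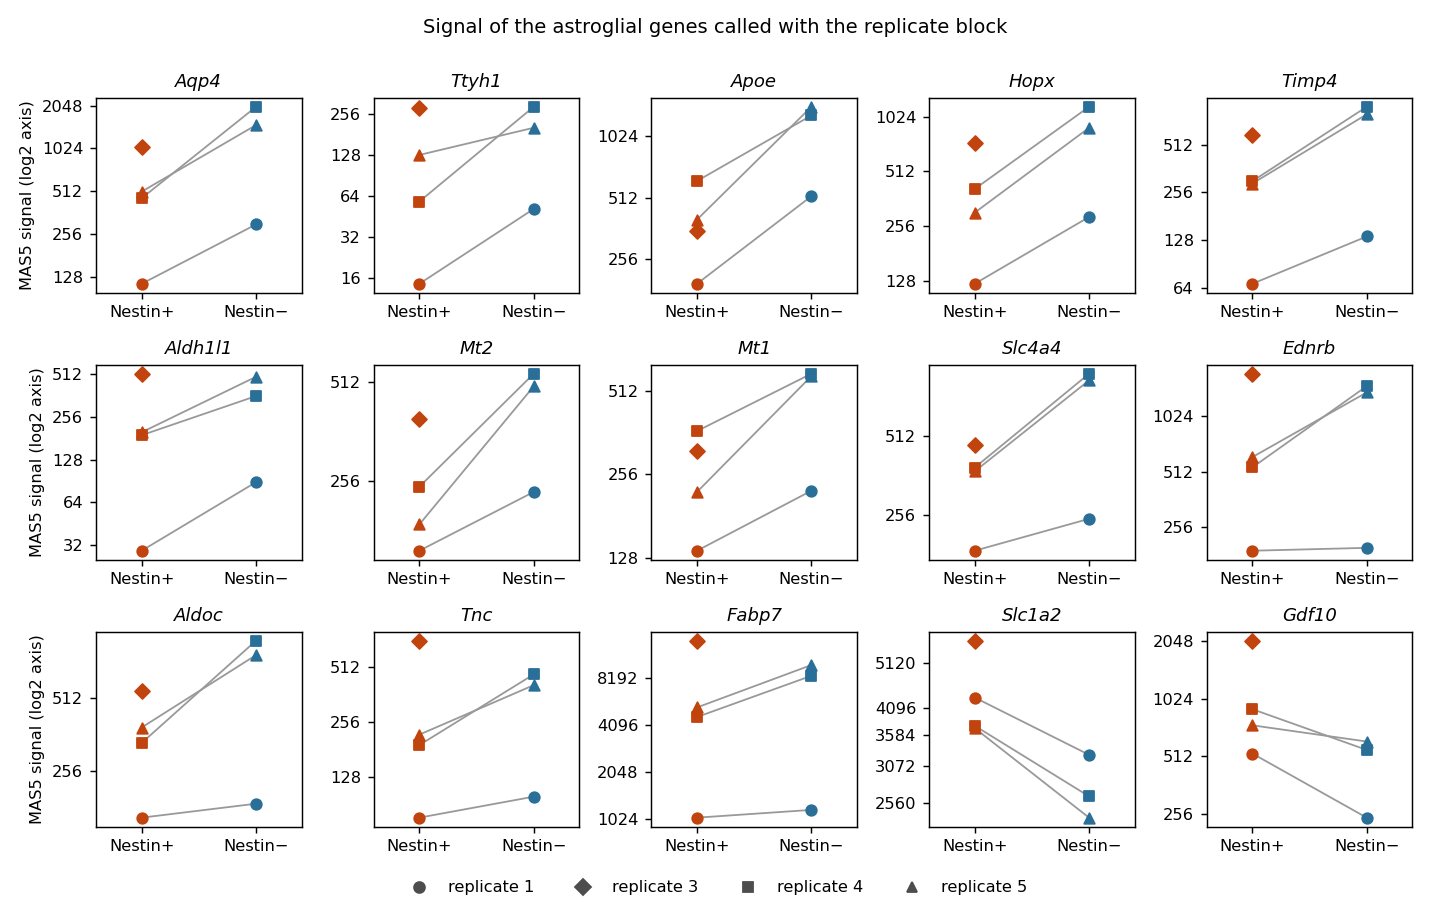
MAS5 signal (log2 axis) of the 15 genes called with the replicate block, Nestin-positive at left and Nestin-negative at right. Grey lines join arrays of the same replicate number; the unpaired Nestin-positive replicate 3 (diamond) lies above the other Nestin-positive arrays in all but Apoe and Mt1.

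The genes can be divided by whether radial glia or progenitors are known to express them too. Of 11 genes shared with these cells, 6 fell and 0 rose with the block, with a median of -0.65. Of the 17 others, 7 fell and 2 rose, with a median of -0.53. Over all genes tested, 6.40% fell and 3.58% rose, with a median of -0.01. The difference between these subsets was not tested.

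Nestin-positive replicate 3 was mostly the highest array of its group. Dixon's test flagged no single Nestin-positive array for any of the 28 genes. It had only 4 arrays, and low replicate 1 signals widen the range it divides by. The test could therefore hardly flag replicate 3, and nothing is concluded from it. The lowest array was the farther from its neighbour for 17 genes and the highest for 11. Replicate 3 had the highest signal of the 4 Nestin-positive arrays for 21 of the 28 genes, and exceeded all 3 Nestin-negative arrays for 13. Against the mean of Nestin-positive replicates 4 and 5, its astroglial signal was higher by a median of 0.75 on the log2 scale, against -0.08 over all genes. Without this array the unblocked median was -0.60, and limma still called 0 of the 28, with 6 below an unadjusted p of 0.05. Of all 11081 genes, that fit called only 11 higher and 34 lower. Leaving out Nestin-positive replicate 1 gave a median of -0.03, and leaving out Nestin-negative replicate 1 gave -0.92, with 0 called by limma in each case (4 and 12 below an unadjusted p of 0.05). Of all 11081 genes, limma called 6 higher and 4 lower in the former fit, and 2 higher and 3 lower in the latter. The replicate 1 arrays were mostly the lowest. The mean of Nestin-negative replicates 4 and 5 was above Nestin-negative replicate 1 by a median of 2.93-fold over the 28 genes, against 1.05-fold over all genes. In the Nestin-positive fraction, replicates 4 and 5 were above replicate 1 by 1.80-fold, against 1.08-fold over all genes. With replicates 4 and 5 alone (n = 2 and 2, chosen after seeing the data), limma without a block called 14 of the 28 lower and 1, Slc1a2, higher, where 2.19% and 0.478% of all genes were.

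Markers of some other cell types also fell in the blocked fit, which called 6.40% of all genes lower and 3.58% higher. The 9 of 11 microglial markers measured all fell with the block, and their summed signal was 291 to 1094 on the Nestin-positive and 2077 to 7925 on the Nestin-negative arrays. Of 9 measured pericyte markers out of 10, 7 fell, with sums of 702 to 2245 on Nestin-positive against 1441 to 10064 on Nestin-negative arrays. All 5 measured meningeal fibroblast markers out of 7 fell, with sums of 943 to 2674 on Nestin-positive against 2132 to 8629 on Nestin-negative arrays. Of 8 measured endothelial markers out of 10, limma with the block called 0 (3 below an unadjusted p of 0.05), with a median of -0.35 and sums of 517 to 1841 on Nestin-positive against 682 to 2054 on Nestin-negative arrays. All of these lists were low on Nestin-negative replicate 1 relative to Nestin-negative replicates 4 and 5, as the astroglial genes were. On Nestin-positive replicate 3, however, pericyte markers averaged -1.49 and microglial markers -2.02 relative to their means, while the astroglial genes averaged 0.62. All 9 measured microglial markers were dim on Nestin-positive replicates 1 and 3. Granule neuron differentiation markers were lower as well (7 of 9 measured out of 10 fell), while 3 of the 7 measured precursor markers rose and 0 fell. Of 6 measured oligodendrocyte lineage markers out of 10, 2 rose and 2 fell. Most of these calls were lost without the block, where limma called 2 of 9 microglial, 0 of 9 pericyte, 0 of 5 meningeal and 3 of 9 granule differentiation markers lower (9, 6, 5 and 7 below an unadjusted p of 0.05), and 0.578% of all genes. The unblocked medians were -2.87, -1.82, -1.97 and -0.74 for these lists. No precursor, endothelial or oligodendrocyte lineage marker was called there by limma (2, 0 and 3 below an unadjusted p of 0.05). The part of these cell types in the astroglial differences was not tested.

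**Figure D4:**
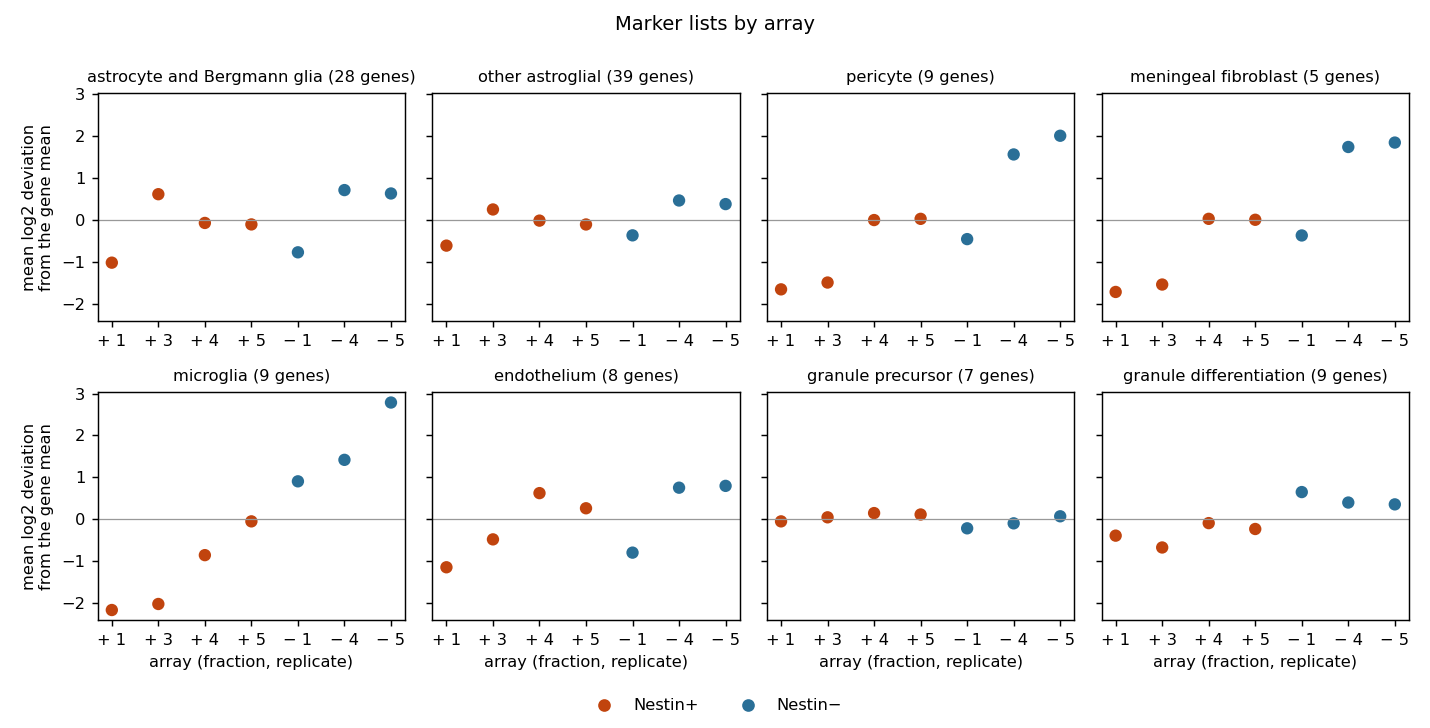
Mean log2 deviation from each gene's mean for 8 marker lists on the 7 arrays (+ Nestin-positive, − Nestin-negative, with the replicate number). Astroglial genes are high on Nestin-positive replicate 3 (0.62), where pericyte (-1.49), meningeal (-1.54) and microglial (-2.02) markers are low.

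A wider list of 54 astroglial genes outside the 29, of which 39 were measured, gave 12 lower and 2 higher genes with the block. Of all genes tested, 6.40% were lower and 3.58% higher in that fit. limma without the block called 0 of the 39, with 6 below an unadjusted p of 0.05, where 0.749% of all genes were called. The median of the 39 with the block was -0.35. The 2 that rose are intermediate filament and progenitor genes. Vim, vimentin, had 7902, 13918, 14231 and 11159 on the Nestin-positive arrays, against 5006, 7900.4 and 8125 on the Nestin-negative arrays (0.66 ± 0.10, adjusted p = 0.00023). Sox2, a transcription factor of neural stem cells and astroglia, had 1528, 2826, 2124 and 1996 on the Nestin-positive arrays, against 834, 1490.4 and 1586 on the Nestin-negative arrays (0.57 ± 0.12, adjusted p = 0.0025). Both were higher in all 3 pairs, and for each the groups overlapped only at Nestin-positive replicate 1.

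Gpr37l1, an orphan receptor of astrocytes, had 122, 322, 309 and 224 on the Nestin-positive arrays, against 319, 840.5 and 745 on the Nestin-negative arrays (-1.52 ± 0.15, adjusted p = 1.0e-06). Agt, angiotensinogen, was dim on 3 of the 4 Nestin-positive arrays, where it reached 91.0 at most, against 123, 262 and 235 on the Nestin-negative arrays, so that the size of its fall (-2.64 ± 0.36) is uncertain. Plpp3, a lipid phosphatase (-0.999 ± 0.14), Id4, an inhibitor of bHLH factors (-1.07 ± 0.17), Mfge8, a secreted phagocytosis bridge (-0.65 ± 0.13), and Scrg1 (-1.01 ± 0.22) were lower in all 3 pairs. Gfap, the intermediate filament of mature astrocytes, had 1 of 3 probe sets kept, with signals of 146, 304, 228 and 315 on the Nestin-positive arrays, against 161, 223 and 139 on the Nestin-negative arrays. It was not called (0.36 ± 0.22, adjusted p = 0.384).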

How the data were processed

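RNA of 7 sorted samples was hybridised to 1-colour Affymetrix mouse arrays. The deposited values are MAS5 signals, an intensity per probe set, per the submitters' processing notes, with a version not given in the sources used here. Each array's mean, leaving out the 2% at either end, was 500.0.

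Of 45101 probe sets, 64 controls were left out. Gene names are those of the platform annotation, brought up to date in RefSeq by Entrez ID. In all 34945 probe sets had 1 gene (34741 matched), 932 several and 9160 none. Log2 was taken without a pseudocount. Probe sets at or above the array median on at least 3 arrays were kept (20144 with 1 gene, 53 of the 68 studied). The probe set with the highest mean log2 stood for its gene, giving 11081 genes. Groups came from sample titles. The fits used limma 3.58.1 in R 4.3.3 (trended eBayes, two-sided, 95% confidence intervals) and statmod 1.5.0 for the random block. The unblocked and blocked fits were also run on simulated data with a replicate effect built in. That run checked the mean estimates, and it cannot show whether the numbers pair these samples.

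Same-numbered samples' deviations from their group means correlated across genes with r = 0.71, 0.39 and 0.47 for replicates 1, 4 and 5 (other combinations -0.60 to 0.19). All were over 0.1, so the numbers were taken to pair the samples, and for the 15 of the 28 genes called with the block both values are given. Nestin-negative replicate 5 passed 0.1 also with Nestin-positive replicates 4 (0.19) and 3 (0.14), so this limit alone does not establish the pairing. The genes and lists were chosen with earlier results of these data known. All 29 genes are reported. Genes called in either fit, and Slc1a3, Fabp7, Gfap and Apoe, are given by array, as are called genes of the wider list, at most 8 by smallest blocked p, in full or by their difference. Alternatives changed the normalization, the filter, the treatment of dim values, the choice of probe set, the block and the arrays included.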

Additional observations from a re-analysis of the deposited data

How the results depend on the processing

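The count of 0 called genes (limma, no block, 5 at an unadjusted p under 0.05) was 0 with each array left out (0 to 0), after quantile normalization, centred medians, raised dim values, an offset of 50, no filter, a filter on all 7 arrays, the mean of probe sets, each probe set singly and eBayes without a trend. No gene was called with centred medians, without the trend, with each probe set singly, or without Nestin-positive replicate 5 or Nestin-negative replicate 4. A count of 0 was thus fixed in those fits. The offset of 50 called 26 higher and 100 lower of 11081 genes, and quantile normalization 9 and 12. With shares this low, 0 of the 28 says little about these genes. Their count was 15 with the replicate block (9.98% of all genes), 3 with the random replicate block and 15 with replicates 4 and 5 alone (chosen after seeing the data). With the block, leaving out 1 pair gave 15 to 20. The difference of Nes lost its call with centred medians (1.78), without the trend (1.73) and with each probe set singly (1.73 for the same probe set). It also lost it in 4 of 7 fits with an array left out (1.60 to 1.86).

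Signs turned for several uncalled differences, and the cause was not tested. With the mean of probe sets Glul was -0.0020 without the block and -0.031 with it, and Ptprz1 was 0.030. With replicates 4 and 5 alone Glul was -0.13 and Sparcl1 -0.18. With each array left out, unblocked differences ran from -1.44 to 0.11 for Aldh1l1, -1.31 to 0.17 for Ednrb, -1.07 to 0.61 for Fabp7, -0.99 to 0.22 for Tnc, -0.85 to 0.060 for Mlc1 and -0.84 to 0.18 for Slc1a3. They ran from -0.67 to 0.18 for Ptprz1, -0.57 to 0.16 for S100b, -0.20 to 0.69 for Sparcl1 and -0.043 to 0.57 for Gja1. With the replicate block and 1 pair left out they ran from -0.64 to 0.17 for S100b, -0.18 to 0.13 for Sparcl1, -0.13 to 0.10 for Glul and -0.0019 to 0.07 for Ndrg2. None of the 15 genes called with the block changed sign there. Among these called genes, dim signals limit Ttyh1, Aldh1l1, Timp4 and Tnc, which were under the array median on 1 or more arrays. Mlc1, not called, was dim on both replicate 1 arrays (37.1 on the Nestin-positive and 52.0 on the Nestin-negative one).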
